A study of Mus musculus with 35 samples.

Results

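The transcription factor p53, encoded by Trp53, and 9 of its target genes were followed across Tet3 genotypes and vectors in RNA-seq of differentiating mouse embryonic stem cells. The 10 genes were found by symbol and each had a row in all 3 deposited tables, which list 17948 genes for day 3, 18091 for the cells transfected with Dnmt1 or its control and 17705 for those with the catalytic domain of TET3 or its control. All 10 passed the filter on low values in every table, so no member was left out.

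The cells derive from V6.5 embryonic stem cells, a male mouse line of mixed genetic background grown on feeder cells. Before differentiation they were pre-plated, a step the paper gives for removing feeders, and moved to gelatin. Tet3+/+ cells carry the unedited gene, Tet3m/m cells carry 2 amino acid substitutions in the iron-binding site of the catalytic domain, and Tet3-/- cells lack an early exon; both mutants were made with CRISPR/Cas9 as independent clones. All groups were differentiated towards neuroectoderm (NE) without LIF and with 1 µM retinoic acid (RA), for 72 h in the day 3 samples. On day 3 there were 3 Tet3+/+, 3 Tet3m/m and 2 Tet3-/- samples, and the Dnmt1 experiment had 2 samples each of the 3 genotypes with an empty vector or with myc-tagged Dnmt1 followed by blasticidin selection. The Tet3-CD experiment had 1 sample per genotype with an empty vector or with an HA-tagged TET3 catalytic domain (Tet3-CD), so it allows no test. The Dnmt1 vector was transfected at the start of differentiation, whereas Tet3-CD was transfected on day 2 and the cells were collected 2 days later. The clone or culture behind each transfected sample is not given in the sources used here, so p-values there measure only the spread between these samples, which may in part be technical.

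p53 is a stress-responsive transcription factor that is controlled mostly through the stability and modification of its protein, which RNA-seq does not measure. It binds pairs of short half-sites in DNA and raises the transcription of genes that halt the cell cycle, repair DNA, limit growth signals and, at high activity, kill the cell. One target, Mdm2, encodes the ubiquitin ligase that marks p53 for degradation and so closes a feedback loop. In embryonic stem cells p53 is abundant, and it is known to favour differentiation. The set was put together as targets with roles other than apoptosis, although Aen and Perp are also known from apoptosis.

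Promoter sequences show where the half-site of p53 occurs near the start of these genes. RefSeq promoter windows of 300 bases (250 before and 50 after the start, GRCm38.p6) were at hand for 7 of the 10 members, and were searched on both strands for the 10-base p53 half-site, which is its own reverse complement, and for 2 adjoining half-sites with up to 3 mismatches in all and the C and G of both cores kept. A half-site without mismatch lay in the windows of 4 members (Trp53, Mdm2, Ccng1 and Aen), against 8.4% of all 32851 windows of this length. An adjoining pair lay in those of 3 members (Trp53, Ccng1 and Aen), against 1.38% of all windows. The stretches are shown 5′ to 3′ on the strand of the gene, with the half-site or pair in capitals and 5 flanking bases on each side, because they are the matches to the sequence that p53 is known to recognise.
Ccng1 (chr11:40755457-40755486, minus strand): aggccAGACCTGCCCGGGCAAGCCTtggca
Aen (chr7:78895932-78895961, plus strand): aagccGGGCTTGTCCGGGCAAGGAGcttcc
Trp53 (chr11:69580279-69580308, plus strand): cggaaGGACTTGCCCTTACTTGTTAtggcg
Mdm2 (chr10:117710930-117710949, minus strand): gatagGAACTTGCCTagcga
The Ccng1 pair had 1 mismatch, and the pairs of Aen and Trp53 had 3 each. The windows of Phlda3, Sesn2 and Plk2 held neither, which says only that these letters are not in these 300 bases. The matches are descriptions of sequence, and no binding of p53 was measured in the values used here.

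Each deposited value is a read count divided by the sample's size factor, called a normalised count below. The samples held 31155842 to 50845950 recovered reads over the 3 experiments, so that even the lowest member value, 1028 for Perp, rested on a large number of reads and the spread between samples, not counting error, set the precision. As levels per kilobase of exon, the only scale on which genes can be set beside each other, Ccng1 was highest in day 3 Tet3+/+ cells at 7188 normalised counts per kilobase (6488 to 7638, n = 3), followed by Phlda3 at 4515 (4152 to 5143). Perp (2810), Trp53 (2271), Plk2 (2180), Mdm2 (2082), Trp53inp1 (1875) and Sesn2 (1716) came next, and Zmat3 (966) and Aen (811) were lowest. Among neighbours in this order, the ranges of Ccng1 and Phlda3, of Phlda3 and Perp, of Sesn2 and Zmat3 and of Zmat3 and Aen did not overlap, nor did those of Mdm2 and Trp53inp1, while the other neighbouring pairs from Perp to Sesn2 overlapped. The exon lengths come from an annotation of an earlier mouse assembly than that used for counting. The annotation also holds a Trp53 pseudogene without a row in the tables, and how reads matching both were counted is not given, so the Trp53 level is uncertain to that extent.

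The vector and the genotype were checked in the same libraries. Tet3 RNA was lower in Tet3m/m than in Tet3+/+ cells on day 3 (log2 fold change -1.05 ± 0.13 SE, limma adjusted p = 0.00071) and in Tet3-/- cells (-1.21 ± 0.15, adjusted p = 0.0274), but with the empty vector of the Dnmt1 experiment Tet3-/- cells held 2520 and 2571 normalised counts against 2957 and 3075 in Tet3+/+. Tet3m/m cells held 1125 and 963.7 with that empty vector, below both other genotypes. A gene count does not show an exon deletion, so it does not check the knockout label. Dnmt1 rose with its vector in each genotype, by 0.64, 0.90 and 1.06 on the log2 scale in Tet3+/+, Tet3m/m and Tet3-/- cells. With the Tet3-CD vector Tet3 went from 4755 to 5441 in Tet3+/+, from 1850 to 5232 in Tet3m/m and from 2070 to 2759 in Tet3-/- cells. All 8 neuroectoderm markers were detected, with a summed level of 29850 to 41068 normalised counts on day 3, and all 6 pluripotency markers remained detectable.

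On day 3, 0 of 10 members passed the test between Tet3m/m and Tet3+/+ cells (limma, adjusted p under 0.05), where 13.9% of all genes tested did. Between Tet3-/- and Tet3+/+ cells 0 of 10 passed as well, where 0.681% of all genes did. The levels of Mdm2, Plk2, Perp and Sesn2 in both Tet3-/- samples nevertheless lay above all 3 Tet3+/+ samples, with adjusted p-values from 0.0591 to 0.089. Between Tet3-/- and Tet3m/m cells, 3 of 10, Ccng1, Plk2 and Perp, were higher in Tet3-/- cells, where 6.96% of all genes were, and 0 were lower. Trp53 itself did not pass in any of the 3 comparisons. The question behind these comparisons was which effects of TET3 depend on its catalytic activity, since Tet3m/m cells lack the activity and Tet3-/- cells the protein. Tet3m/m cells also held less Tet3 RNA (log2 fold change -1.05 against Tet3+/+), which the paper asks readers to consider in interpretation.

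Trp53 was at 9360, 8634 and 9566 normalised counts in the Tet3+/+ samples, at 10172, 10299 and 10593 in Tet3m/m, and at 9852 and 8353 in Tet3-/-. The Tet3m/m samples all lay above the others, but the difference from Tet3+/+ was small (log2 fold change 0.17 ± 0.09, limma adjusted p = 0.229). In Tet3-/- cells it was -0.02 ± 0.10 (adjusted p = 0.943).

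Mdm2, the ubiquitin ligase for p53, had 11020, 9833 and 10896 normalised counts in Tet3+/+, 20371, 12812 and 10753 in Tet3m/m, and 19348 and 21544 in Tet3-/- samples. Both Tet3-/- samples and Tet3m/m replicate 1 were high, and the other 5 samples lay between 9833 and 12812. The log2 fold change of Tet3-/- against Tet3+/+ was 0.95 ± 0.21 (adjusted p = 0.0591). Trp53inp1, which encodes a nuclear protein that acts with p53 and in autophagy, had 12423, 12240 and 11763 in Tet3+/+, 20870, 13924 and 13665 in Tet3m/m, and 16890 and 17407 in Tet3-/- samples. All 5 mutant samples lay above the Tet3+/+ samples, with log2 fold changes of 0.38 ± 0.14 in Tet3m/m (adjusted p = 0.105) and 0.50 ± 0.16 in Tet3-/- (adjusted p = 0.126).

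Among the targets that act on the cell cycle, Ccng1, which encodes cyclin G1, was at 26127, 22785 and 26825 in Tet3+/+, at 28646, 18479 and 16875 in Tet3m/m, and at 36741 and 32315 in Tet3-/- samples. Plk2, a polo-like kinase of centriole duplication and stress responses, was at 11403, 7898 and 10066 in Tet3+/+, at 14557, 9716 and 6233 in Tet3m/m, and at 18961 and 20901 in Tet3-/- samples. For both genes the 2 Tet3-/- samples were the highest of the 8 and the Tet3m/m samples were spread on both sides of Tet3+/+. Against Tet3m/m, Ccng1 was higher in Tet3-/- by 0.73 ± 0.19 on the log2 scale (adjusted p = 0.0336) and Plk2 by 1.05 ± 0.28 (adjusted p = 0.0338).

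Perp, a membrane protein of desmosomes in epithelia, had 6537, 4245 and 5673 normalised counts in Tet3+/+, 7775, 4713 and 3373 in Tet3m/m, and 11547 and 10392 in Tet3-/- samples. Its difference between the mutants was the largest of the set (log2 fold change 1.14 ± 0.28, adjusted p = 0.0275), and against Tet3+/+ it was 1.02 ± 0.28 (adjusted p = 0.089). Sesn2, a stress-induced inhibitor of mTORC1 signalling, had 6367, 5292 and 6232 in Tet3+/+, 8053, 6148 and 5984 in Tet3m/m, and 9104 and 8357 in Tet3-/- samples, again with the Tet3-/- samples on top (0.55 ± 0.14 against Tet3+/+, adjusted p = 0.0719). Phlda3, a PH-domain protein that restrains AKT, ranged from 5669 to 9025 over the 8 samples with overlapping Tet3+/+ and mutant groups. Aen, a nuclease, ranged from 4243 to 5779. Zmat3, an RNA-binding zinc finger protein, had 10572, 10944 and 11634 in Tet3+/+, 10034, 8089 and 8251 in Tet3m/m, and 11943 and 10743 in Tet3-/- samples. All Tet3m/m samples lay below the others for Zmat3, with a log2 fold change against Tet3+/+ of -0.34 ± 0.10 that missed the threshold (adjusted p = 0.052).

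**Figure D1:**
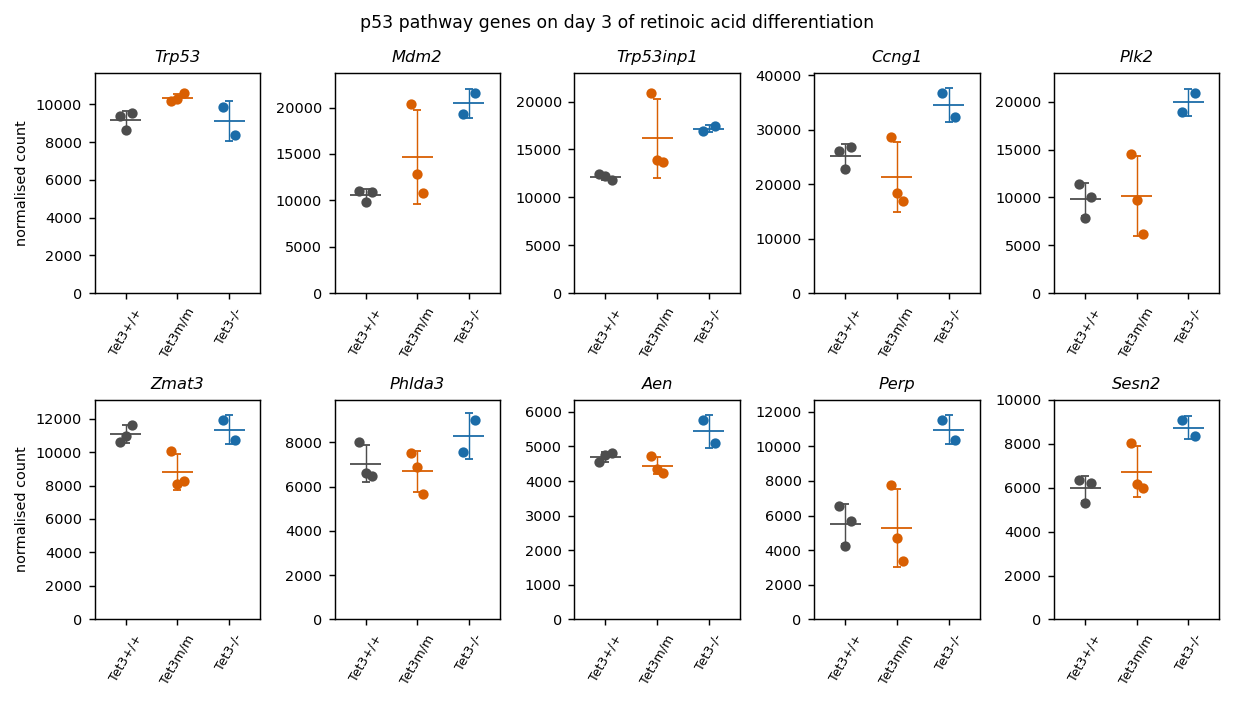
Normalised counts (axes from 0) of the 10 genes in the day 3 samples, with 1 point per sample, the group mean as a line and the SD as a bar; n = 3 Tet3+/+, 3 Tet3m/m and 2 Tet3-/-. The Tet3-/- samples of Mdm2 sit at 19348 and 21544, level with 1 Tet3m/m sample at 20371, while Trp53 stays between 8353 and 10593 in all 8 samples.

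DESeq2 called more members than limma or edgeR on day 3. For Tet3m/m against Tet3+/+ 2 members had an unadjusted p under 0.05, and edgeR called 0 and DESeq2 1. For Tet3-/- against Tet3+/+ 6 members had an unadjusted p under 0.05, and edgeR called 0 and DESeq2 4. The median log2 fold change of the members in Tet3-/- against Tet3+/+ was 0.48 against -0.01 over all genes, and the groups did not overlap for 7 of 10 members against 41.2% of all genes. Against Tet3m/m the median was 0.38 against -0.01.

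These day 3 counts turned on single libraries, above all on Tet3m/m replicate 1. The median over the 9 targets of the log2 ratio to the Tet3+/+ mean was 0.44 in that library, -0.02 and -0.31 in the other Tet3m/m libraries, and 0.54 and 0.49 in the Tet3-/- libraries. Without Tet3m/m replicate 1, the members that passed were 2 for Tet3m/m against Tet3+/+, 6 for Tet3-/- against Tet3+/+ and 8 for Tet3-/- against Tet3m/m. The last count fell to 0 without Tet3m/m replicate 2 or without either Tet3-/- sample, and to 1 without Tet3+/+ replicate 3. Tet3-/- against Tet3+/+ gave 4 without Tet3m/m replicate 3 and 6 with Tet3m/m left out of the fit altogether. In that last fit 956 of all genes passed, against 122 in the main fit. Tet3m/m against Tet3+/+ gave 1 without Tet3m/m replicate 3 or without either Tet3-/- sample. With only Tet3-/- and Tet3m/m in the fit, 0 members passed between them, where 1206 of all genes did, against 2194 in the main fit. The calls over all genes without single libraries are not given here. The member counts above can therefore follow a change in calls over all genes.

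Marker genes also differed between these libraries, but not all of them followed the target medians. The summed level of the 6 feeder fibroblast markers (Col1a1, Col1a2, Col3a1, Dcn, Pdgfra and Thy1, none at 0) was 43493 to 48013 in the Tet3-/- samples, 17699 to 28935 in Tet3+/+ and 12677 to 22555 in Tet3m/m. Tet3m/m replicate 1, with high targets, was at 22555, within the Tet3+/+ range. The cells were differentiated on gelatin after pre-plating, and whether these genes came from remaining feeder cells was not tested. The summed level of 10 epithelial junction genes was 253945 and 199762 in Tet3-/- and between 98274 and 181581 in the other 6 samples, and Tet3m/m replicate 1 had the highest of those 6. Between Tet3-/- and Tet3+/+ cells 0 of these 10 genes passed (limma), with 6 at an unadjusted p under 0.05, 0 with edgeR and 6 with DESeq2 and a median log2 fold change of 0.58. Of 14 G2 and mitosis genes 0 passed as well, with 12 at an unadjusted p under 0.05, 0 with edgeR and 4 with DESeq2 and a median of -0.35. Of 5 endoderm markers 4 were lower in Tet3-/- than in Tet3m/m cells with limma, where 948 of all 17915 genes were. With edgeR 2 were lower and with DESeq2 4, and the calls for Afp and Sox17 were lost without most single libraries. Their part in the differences of the p53 targets was not tested, and fewer cells of a type cannot be told apart from less RNA per cell in bulk samples.

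With the empty vector of the Dnmt1 experiment, 9 of the 10 members were higher in Tet3-/- than in Tet3+/+ cells, where 26.7% of all genes tested were, and Trp53 was the exception. Perp was 3.49-fold and Plk2 3.16-fold higher. In Tet3m/m cells 6 members were lower than in Tet3+/+ (23.6% of all genes were) and 2 were higher (21.9%), so that the set split. The mutants therefore stood on opposite sides of Tet3+/+ for Plk2, Perp, Phlda3, Ccng1, Zmat3 and Aen, and on the same side for Trp53inp1 and Sesn2. Replicates lay closer together here than on day 3 (chi-square per degree of freedom 3.96 to 11.11 against 13.84 to 87.18). Counts of calls therefore cannot be compared directly with day 3. In Tet3-/- cells Mdm2 passed here at a log2 fold change of 0.68 but not on day 3 at 0.95.

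Trp53 was at 7807 and 8132 normalised counts in Tet3+/+, 7729 and 8143 in Tet3m/m and 8465 and 8267 in Tet3-/- cells with the empty vector. The log2 fold change of Tet3-/- against Tet3+/+ was 0.07 ± 0.05 (limma adjusted p = 0.223), and that of Tet3m/m was -0.01 ± 0.05 (adjusted p = 0.932). Mdm2 was at 6892 and 6697 in Tet3+/+, 6966 and 7010 in Tet3m/m, and 11006 and 10834 in Tet3-/-. The feedback ligase was thus raised in Tet3-/- cells by 0.68 ± 0.05 (adjusted p = 8.51e-10), while the Tet3m/m difference of 0.04 did not pass (adjusted p = 0.577). Trp53inp1 was at 7470 and 7593 in Tet3+/+, 9484 and 9404 in Tet3m/m and 12947 and 12886 in Tet3-/-, a stepwise order in which no groups overlapped. It was raised by 0.33 ± 0.04 in Tet3m/m (adjusted p = 2.88e-06) and by 0.78 ± 0.04 in Tet3-/- cells (adjusted p = 6.36e-12).

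Plk2 was at 4405 and 4270 normalised counts in Tet3+/+, 1801 and 1985 in Tet3m/m, and 13847 and 13537 in Tet3-/- cells. The kinase gene thus fell by 1.20 on the log2 scale in Tet3m/m (SE 0.07, adjusted p = 8.26e-12) and rose by 1.66 ± 0.07 in Tet3-/- (adjusted p = 5.76e-14), and the mutants differed 7.24-fold from each other. Ccng1 was at 12940 and 12855 in Tet3+/+, 10503 and 10920 in Tet3m/m, and 25358 and 23929 in Tet3-/-. Its differences had the same signs as those of Plk2 but were smaller, -0.27 ± 0.06 in Tet3m/m and 0.93 ± 0.06 in Tet3-/-.

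Perp, the desmosome gene, was at 1946 and 1938 in Tet3+/+, 1028 and 1175 in Tet3m/m, and 7078 and 6488 in Tet3-/- cells. It was the member with the largest rise in Tet3-/- against Tet3+/+ (1.80 ± 0.09, adjusted p = 8.61e-13), and the mutants differed 6.16-fold. Phlda3, the AKT inhibitor, was at 5066 and 5631 in Tet3+/+, 3265 and 3351 in Tet3m/m and 9476 and 9059 in Tet3-/-. It moved by -0.69 ± 0.06 in Tet3m/m and 0.79 ± 0.06 in Tet3-/- cells. Sesn2 was at 3858 and 3552 in Tet3+/+, 4234 and 4338 in Tet3m/m, and 6233 and 6161 in Tet3-/-, and like Trp53inp1 it was higher in both mutants (0.21 ± 0.05 and 0.74 ± 0.05). Zmat3 was at 6485 and 6853 in Tet3+/+, 6347 and 5832 in Tet3m/m, and 10002 and 10420 in Tet3-/-. Its fall in Tet3m/m was slight (-0.13 ± 0.05, adjusted p = 0.0314), next to a rise of 0.61 ± 0.05 in Tet3-/-. Aen had the smallest difference of the 9 targets in Tet3-/-, from 4003 and 3984 in Tet3+/+ to 4986 and 4779 (0.29 ± 0.05), with 3430 and 3527 in Tet3m/m (-0.20 ± 0.05).

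**Figure D2:**
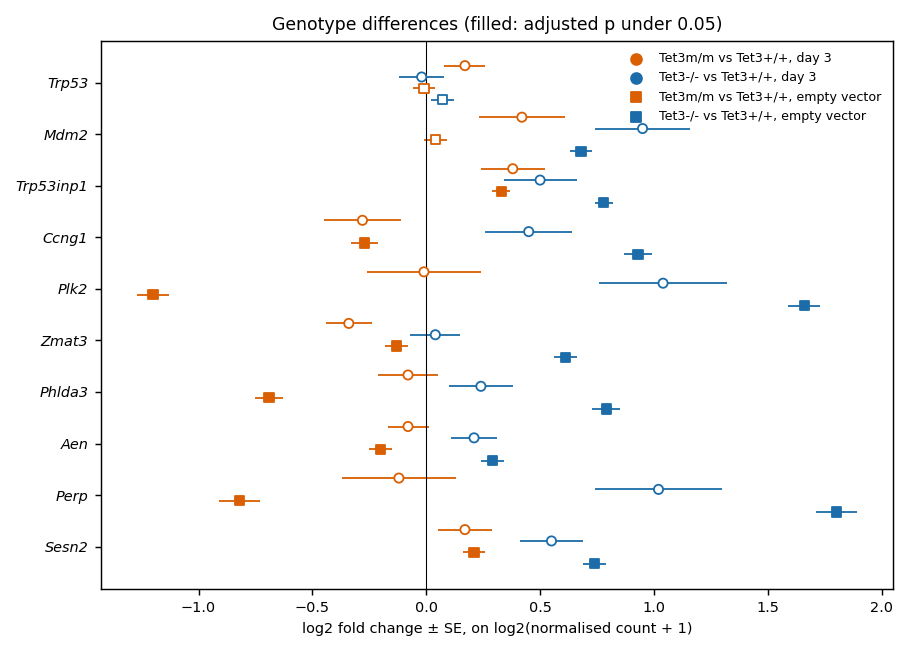
Log2 fold changes of Tet3m/m (orange) and Tet3-/- (blue) against Tet3+/+ cells for the 10 genes, on day 3 (circles) and with the empty vector of the Dnmt1 experiment (squares); bars are the SE of the fit and filled symbols passed at an adjusted p under 0.05. Trp53 stays between -0.02 and 0.17 in all 4 comparisons, while Plk2 with the empty vector lies at -1.20 in Tet3m/m and 1.66 in Tet3-/-.

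In either direction 8 of 10 members differed between Tet3m/m and Tet3+/+ cells, where 45.6% of all genes did. Between Tet3-/- and Tet3m/m cells 9 of 10 were higher, against 32.4% of all genes. The median log2 fold change of the members was 0.76 in Tet3-/- and -0.17 in Tet3m/m against Tet3+/+ cells, and 0.70 between the mutants, where those over all genes were 0.00, 0.01 and -0.01. With an added threshold of a 1.5-fold change, only Plk2, Perp and Phlda3 remained of the 8 that differed between Tet3m/m and Tet3+/+, where 21.2% of all genes passed both. Leaving out any 1 library gave 9 members in both comparisons with Tet3-/- and 6 to 8 members for Tet3m/m against Tet3+/+.

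The marker genes also separated these groups. Of all 18055 genes tested, 8230 passed for Tet3m/m and 9612 for Tet3-/- against Tet3+/+, and 11852 between the mutants. The 6 pluripotency markers summed to 62947 and 64763 in Tet3m/m, 22483 to 22916 in Tet3+/+ and 6224 to 6608 in Tet3-/- cells with the empty vector, with none at 0, and all 6 passed the test in each of the 3 comparisons. The feeder fibroblast markers summed to 37086 to 37401 in Tet3-/-, 20377 to 21772 in Tet3+/+ and 11415 to 11901 in Tet3m/m, also with none at 0. This list did not move as a whole in Tet3-/- against Tet3+/+, with a median log2 fold change of -0.07. Thy1 and Pdgfra fell (by 1.19 and 1.06 on the log2 scale) while Col3a1 and Col1a1 rose by 1.64 and 1.28. The other 2 genes, Col1a2 and Dcn, did not pass. The 5 endoderm markers summed to 19087 to 19601 in Tet3m/m, 9042 to 9425 in Tet3+/+ and 6415 to 6859 in Tet3-/- cells, and all 5 passed for both mutants against Tet3+/+ (higher in Tet3m/m, and 2 higher and 3 lower in Tet3-/-). The 8 neuroectoderm markers summed to 29965 to 31211 in Tet3m/m, 25237 to 26244 in Tet3+/+ and 25937 to 27649 in Tet3-/- cells. The part of these cell differences in the levels of the p53 targets was not tested.

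Cdkn1a, which encodes the CDK inhibitor p21 and is the best known p53 target for cell cycle arrest, was at 3489 and 3539 normalised counts in Tet3+/+, 2149 and 2133 in Tet3m/m and 10862 and 10643 in Tet3-/- cells with the empty vector. It was thus 3.06-fold higher in Tet3-/- and 0.609 times as high in Tet3m/m as in Tet3+/+ (adjusted p = 1.14e-14 and 4.22e-09).

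A wider list of 30 further p53 targets, which includes Cdkn1a and apoptosis genes, split more evenly. With the empty vector, 18 of these were higher and 7 lower in Tet3-/- than in Tet3+/+ cells, with a median of 0.29. Of all genes tested, 26.7% were higher and 4800 of 18055 lower in Tet3-/-, and 21.9% and 23.6% in Tet3m/m. After Cdkn1a (1.61 ± 0.06), Ephx1, an epoxide hydrolase, rose by 1.52 ± 0.17, the death receptor gene Fas by 1.44 ± 0.32 and the antiproliferative gene Btg2 by 1.31 ± 0.07. The largest falls were those of Gdf15 (-1.54 ± 0.43), a secreted stress cytokine, Gls2 (-1.03 ± 0.09), a mitochondrial glutaminase, and Ddb2 (-0.52 ± 0.12), a DNA damage recognition protein. In Tet3m/m cells 7 were higher and 13 lower than in Tet3+/+, led by Pmaip1 (1.07 ± 0.07), the BH3-only gene for NOXA, among the higher and by Fas (-1.79 ± 0.32) and the long noncoding RNA gene Trp53cor1 (-1.73 ± 0.33) among the lower.

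On day 3 the same list gave 1 higher (Fbxw7, a ubiquitin ligase subunit, 0.52 ± 0.10) and 1 lower (Ddit4, an inhibitor of mTORC1, -0.89 ± 0.14) in Tet3m/m against Tet3+/+, and 0 in Tet3-/- against Tet3+/+ (limma), where 8 had an unadjusted p under 0.05, edgeR gave 0 and DESeq2 5. Between Tet3-/- and Tet3m/m 5 were higher, led by Pmaip1 (1.10 ± 0.24), Cdkn1a (0.91 ± 0.19) and the death receptor gene Tnfrsf10b (0.66 ± 0.18), and 2 lower, Ddb2 (-0.64 ± 0.19) and Gls2 (-0.54 ± 0.16). These 7 calls became 4 with edgeR and 10 with DESeq2. Over all 17915 genes, limma called 6.96% higher and 948 genes lower between the mutants. For Tet3m/m against Tet3+/+ it called 1180 higher and 1305 lower. All 5 of the higher genes were lost without either Tet3-/- sample, and Ddb2 and Gls2 failed in 10 and 12 of 17 alternatives.

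Among 17 regulators and relatives of p53, 3 were higher and 8 lower in Tet3-/- than in Tet3+/+ cells with the empty vector, and 4 were higher and 6 lower in Tet3m/m. Beside these stand 26.7% higher and 4800 of 18055 lower among all genes in Tet3-/-, and 21.9% and 23.6% in Tet3m/m. Cdkn2a, the locus of ARF, an inhibitor of MDM2, was at 1475 and 1468 normalised counts in Tet3+/+, 415.8 and 419.4 in Tet3m/m and 3066 and 2916 in Tet3-/- cells. It thus rose in Tet3-/- (1.02 ± 0.08, adjusted p = 7.42e-10) and fell in Tet3m/m cells (-1.81 ± 0.08, adjusted p = 4.78e-14), the same signs as Plk2 and Perp. On day 3 Cdkn2a was at 2647, 2028 and 2271 in Tet3+/+, 2062, 2184 and 1503 in Tet3m/m and 3071 and 3485 in Tet3-/- samples, and passed only between the mutants (0.79 ± 0.17, adjusted p = 0.0135), a call lost without Tet3-/- replicate 2. The counts do not separate ARF from the other product of the locus, p16. Rpl5 and Rpl11, ribosomal proteins that can bind MDM2, were lower in Tet3-/- than in Tet3+/+ cells with the empty vector (-0.67 ± 0.04 and -0.56 ± 0.05). Hipk2, a kinase of p53, was lower in Tet3m/m than in Tet3+/+ cells on day 3 (-1.28 ± 0.10, adjusted p = 5.96e-05) and with the empty vector (-0.95 ± 0.07), and higher in Tet3-/- cells with the empty vector (0.82 ± 0.07).

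Other lists moved beside the p53 targets with the empty vector. The shares over all genes were 26.7% higher and 4800 of 18055 lower in Tet3-/-, and 21.9% higher and 23.6% lower in Tet3m/m. Of 14 G2 and mitosis genes 0 were higher and 11 lower in Tet3-/- than in Tet3+/+ cells, with a median of -0.39, led by the cyclins Ccnb2 (-0.63 ± 0.05) and Ccnb1 (-0.55 ± 0.04) and the mitotic kinase Aurka (-0.55 ± 0.05); in Tet3m/m 3 were higher and 1 lower. Of 10 epithelial junction genes, which work in cell contacts as Perp does, 9 were higher in Tet3-/- cells, led by desmoplakin, Dsp (1.28 ± 0.07), and the keratins Krt8 (1.24 ± 0.07) and Krt18 (1.05 ± 0.06), and Epcam was lower (-0.31 ± 0.05). In Tet3m/m 2 were higher and 6 lower, led by Krt18 (-1.62 ± 0.06). Of 12 targets of ATF4, the amino acid stress factor that also acts on Sesn2 and Trib3, 3 were higher and 7 lower in Tet3-/- cells, with the asparagine synthetase gene Asns at -1.47 ± 0.04. The higher genes of this list were Cebpb (0.76), Atf5 (0.44) and Atf4 itself (0.23). The part of ATF4 in the level of Sesn2 was not tested.

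Dnmt1, the maintenance DNA methyltransferase, was expressed in all 3 genotypes. In Tet3-/- cells 7 of 10 members rose with Dnmt1, where 7.46% of all genes tested did, and no member fell. In Tet3+/+ cells only Trp53 passed (higher, where 2.75% of all genes were), and in Tet3m/m cells Trp53 and Plk2 were higher and Trp53inp1 lower, where 6.73% and 3.47% of all genes were. All these changes were below 1.5-fold.

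Trp53 went from 7807 and 8132 to 9666 and 9114 in Tet3+/+ cells, from 7729 and 8143 to 10472 and 10079 in Tet3m/m, and from 8465 and 8267 to 8909 and 9326 in Tet3-/- cells. Every Dnmt1 sample lay above every empty-vector sample of its genotype, and the change passed in Tet3+/+ (0.24 ± 0.05, limma adjusted p = 0.00446) and in Tet3m/m (0.37 ± 0.05, adjusted p = 1.46e-05) but not in Tet3-/- cells (0.12 ± 0.05, adjusted p = 0.0896). The change was smallest in Tet3-/- cells, the genotype in which most targets rose. Its difference from the change in Tet3+/+ cells did not pass, however (-0.11 ± 0.07, limma adjusted p = 0.336).

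In Tet3-/- cells Mdm2 went from 11006 and 10834 normalised counts to 14271 and 16503 (0.49 ± 0.05, adjusted p = 3.49e-06), while in Tet3+/+ cells it stayed at 6636 and 6940 and in Tet3m/m cells at 6868 and 6767 with Dnmt1. Perp went from 7078 and 6488 to 8556 and 11380 (0.54 ± 0.09, adjusted p = 0.000369) and Plk2 from 13847 and 13537 to 16259 and 20282 (0.41 ± 0.07, adjusted p = 0.00053). Sesn2 reached 7358 and 7996 (0.31 ± 0.05), and Ccng1 27376 and 32621 (0.28 ± 0.06). In all 5 genes Dnmt1 replicate 2 was the higher of the 2 Dnmt1 samples. Trp53inp1 (0.21 ± 0.04) and Phlda3 (0.19 ± 0.06) also rose, and Aen (0.08 ± 0.05) and Zmat3 (-0.05 ± 0.05) did not pass. The 2 Dnmt1 samples of Tet3-/- cells themselves differed more than any other pair of this experiment, with a chi-square per degree of freedom of 11.11 against 3.96 to 6.48.

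**Figure D3:**
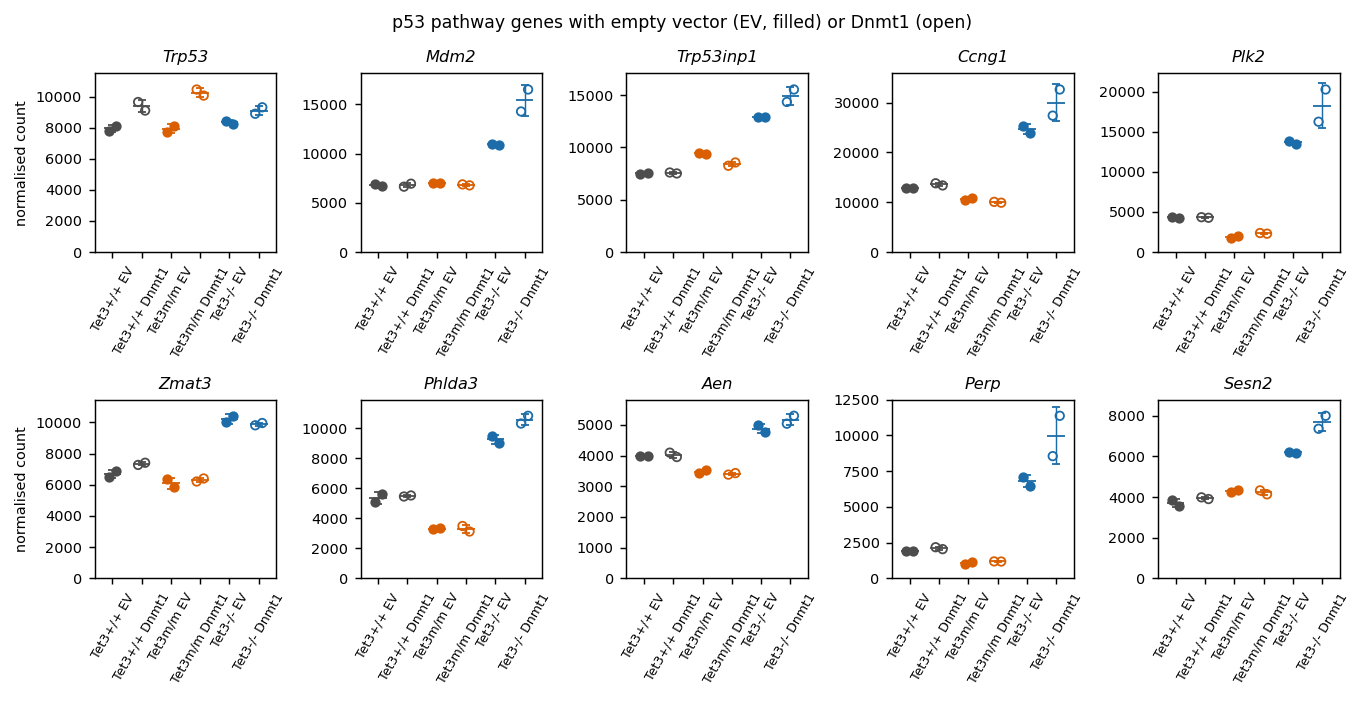
Normalised counts (axes from 0) of the 10 genes in the Dnmt1 experiment, with 1 point per sample, filled for the empty vector and open for Dnmt1, the group mean as a line and the SD as a bar (n = 2 per group). Plk2 sits at 13537 to 20282 in the Tet3-/- samples and at 1801 to 4405 in all others.

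In Tet3m/m cells Plk2 went from 1801 and 1985 to 2369 and 2290 (0.30 ± 0.07, adjusted p = 0.00814) and Trp53inp1 from 9484 and 9404 to 8253 and 8567 (-0.17 ± 0.04, adjusted p = 0.0181). The other 7 targets had log2 fold changes from -0.10 to 0.10 that did not pass. In Tet3+/+ cells the 9 targets lay between -0.01 and 0.14, with Zmat3 the highest.

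The difference between genotypes in the response to Dnmt1 was tested as an interaction. The change in Tet3-/- exceeded that in Tet3+/+ cells for 4 of 10 members, Mdm2 (0.49 ± 0.08, limma adjusted p = 0.00023), Perp (0.42 ± 0.13), Plk2 (0.42 ± 0.10) and Trp53inp1 (0.20 ± 0.06), where 5.24% of all genes had a significantly higher change. Against Tet3m/m the change in Tet3-/- cells was higher for 5 members, Mdm2 (0.53 ± 0.08), Perp (0.44 ± 0.13), Ccng1 (0.38 ± 0.08), Trp53inp1 (0.38 ± 0.06) and Sesn2 (0.33 ± 0.08), where 6.65% of all genes were, and lower for Trp53 (-0.25 ± 0.07), where 7.6% were. Between Tet3m/m and Tet3+/+ cells 0 members differed in their response (limma), with 3 at an unadjusted p under 0.05 and 0 with edgeR and with DESeq2; 1.31% of all genes did.

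**Figure D4:**
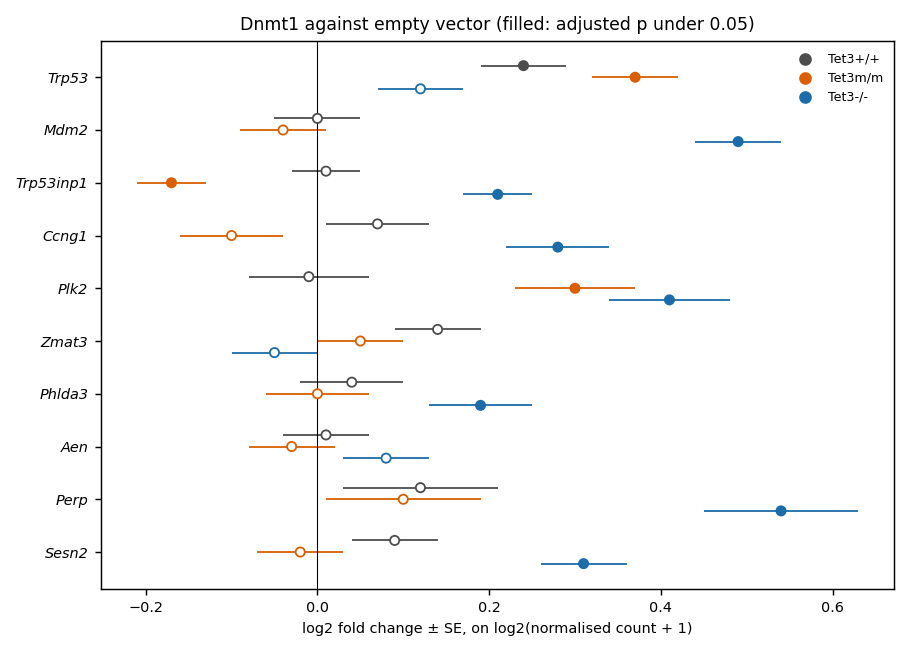
Log2 fold changes of Dnmt1 against the empty vector in Tet3+/+ (grey), Tet3m/m (orange) and Tet3-/- cells (blue); bars are the SE of the fit and filled symbols passed at an adjusted p under 0.05. Mdm2 lies at 0.49 in Tet3-/- cells and within 0.04 of 0 in the other genotypes, and Trp53 is highest in Tet3m/m at 0.37.

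The larger response of Mdm2 in Tet3-/- than in Tet3+/+ cells passed in 20 of 20 alternatives, and those of Mdm2, Ccng1, Trp53inp1 and Sesn2 against Tet3m/m in 21 of 21, the 1.5-fold threshold aside. Perp passed in 9 of 20 and 13 of 21 and was lost with DESeq2 in both, Trp53inp1 against Tet3+/+ passed in 10 of 20, Plk2 in 18 of 20 and Trp53 in 17 of 21. With DESeq2 the counts were 3 and 5 members against 4 and 6 with limma.

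The count of 7 in Tet3-/- cells became 4 without Dnmt1 replicate 2, and 4 to 8 over all single libraries left out. In Tet3+/+ cells the Trp53 call was lost without the first empty-vector library or without Dnmt1 replicate 1, and in Tet3m/m cells only 1 member passed without the first library of either vector. The interaction against Tet3+/+ fell from 4 to 1 or 2 members without any one of 7 libraries (both Tet3+/+ libraries of each vector, both empty-vector Tet3-/- libraries and Dnmt1 Tet3-/- replicate 2).

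Markers differed here as well. Over all 18055 genes, 7.46% were higher and 1076 genes lower with Dnmt1 in Tet3-/- cells. In Tet3+/+ cells 2.75% were higher and 513 genes lower, and in Tet3m/m cells 6.73% higher and 3.47% lower. In Tet3-/- cells the pluripotency markers rose with Dnmt1, all 6 of 6, from 6224 to 6608 up to 8607 to 8636 in sum. The feeder fibroblast markers summed to 34689 and 45015 with Dnmt1 against 37086 to 37401, with the higher value in replicate 2, the library with the higher target levels. They did not move together: Col1a1 passed as higher (log2 fold change 0.32), and Col1a2 (-0.92) and Dcn (-0.7) passed as lower. Of the G2 and mitosis genes 8 of 14 were lower with Dnmt1 in Tet3-/- cells, led by Aurkb (-0.33 ± 0.05), and of the epithelial junction genes 6 of 10 were higher, led by Pkp2 (0.46 ± 0.08). Of the 30 further p53 targets 10 were higher and 2 lower, with Fas at 1.08 ± 0.32, Pmaip1 at 0.66 ± 0.07 and Cdkn1a at 0.34 ± 0.06; 1 was higher and 0 lower in Tet3+/+ cells (Pidd1, 0.31 ± 0.07), and 0 higher and 2 lower in Tet3m/m (Ddb2, -0.60 ± 0.12, and Dcxr, -0.40 ± 0.10). Among the regulators, Cdkn2a rose with Dnmt1 in Tet3m/m (0.35 ± 0.08) and Tet3-/- cells (0.26 ± 0.08), and the checkpoint kinase gene Chek1 fell in Tet3-/- cells (-0.36 ± 0.07). Without Dnmt1 replicate 2 or the second empty-vector library of Tet3-/- cells the calls for Fas and Cdkn2a there were lost, and Chek1 was lost without the latter. The calls for Pidd1, Dcxr and Cdkn2a in the other genotypes were each lost without 1 or 2 single libraries. The neuroectoderm markers summed to 33847 to 36642 with Dnmt1 in Tet3-/- cells, against 25937 to 27649 with the empty vector. Of these 8 markers 4 passed as higher and 2 as lower. The part of these shifts in the rise of the p53 targets was not tested.

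The Tet3-CD experiment, with 1 sample per group and hence no test, gave another order of the genotypes. Here the empty-vector Tet3m/m sample was the highest of the 3 empty-vector samples for each member. It was 1.4 to 2.34 times the next highest sample for 9 of the 10 and 1.08 times for Zmat3. Of all 17481 genes, 8831 were higher in Tet3m/m than in Tet3+/+, and 36.3% were past 1.5-fold in either direction. The share of all genes that were highest in Tet3m/m was not counted. The Tet3-/- sample was close to Tet3+/+ except for Perp. The label of each sample was taken as given.

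Perp was at 2165 normalised counts in Tet3+/+, 9354 in Tet3m/m and 4118 in Tet3-/- cells with the empty vector. Mdm2 was at 8152, 18491 and 9211 in the same order, Plk2 at 6670, 15618 and 6577, and Ccng1 at 19668, 28360 and 18518. The Tet3m/m sample was thus 4.32-fold higher than Tet3+/+ for Perp, 2.27-fold for Mdm2 and 2.34-fold for Plk2. Trp53inp1 (8442, 14143 and 9730), Phlda3 (5310, 8737 and 6210), Sesn2 (4968, 8155 and 5437) and Aen (3558, 5170 and 3692) had the same order. Trp53 was at 5840, 8835 and 5766, so that in this table it was high in the sample in which the targets were high, and Zmat3 was at 7238, 7818 and 7248.

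The median log2 ratio of Tet3m/m to Tet3+/+ over the 10 members was 0.72 (10 of 10 higher) in this experiment, against 0.01 over all genes, whereas it was -0.17 in the Dnmt1 experiment. For Tet3-/- it was 0.09 (7 of 10 higher), against 0.76 in the Dnmt1 experiment. The tables were normalised separately, and the transfection and collection times differ, so these are ratios within each table set side by side, and the difference between the experiments was not tested. Here 7 of 10 members were past 1.5-fold for Tet3m/m over Tet3+/+, where 36.3% of all genes were past it in either direction, and 1 of 10 for Tet3-/-, where 27.1% were.

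With Tet3-CD the Tet3-/- sample was higher than its empty-vector partner for 10 of 10 members, with a median log2 ratio of 0.48. Perp went from 4118 to 9205, Plk2 from 6577 to 12940, Ccng1 from 18518 to 30367 and Mdm2 from 9211 to 14833. These 4 were past 1.5-fold, where 21.5% of all genes were past it in either direction. Trp53 went from 5766 to 6901. In the Tet3+/+ sample the median was 0.13, with Perp going from 2165 to 3153 as the largest ratio, 1.46, and in Tet3m/m it was 0.01, with ratios from 0.935 to 1.12; 0 of 10 members were past 1.5-fold in either, where 13.4% and 10.1% of all genes were. Cdkn1a went from 6657 to 10379 in Tet3-/-, from 6393 to 7240 in Tet3+/+ and from 11577 to 10727 in Tet3m/m.

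**Figure D5:**
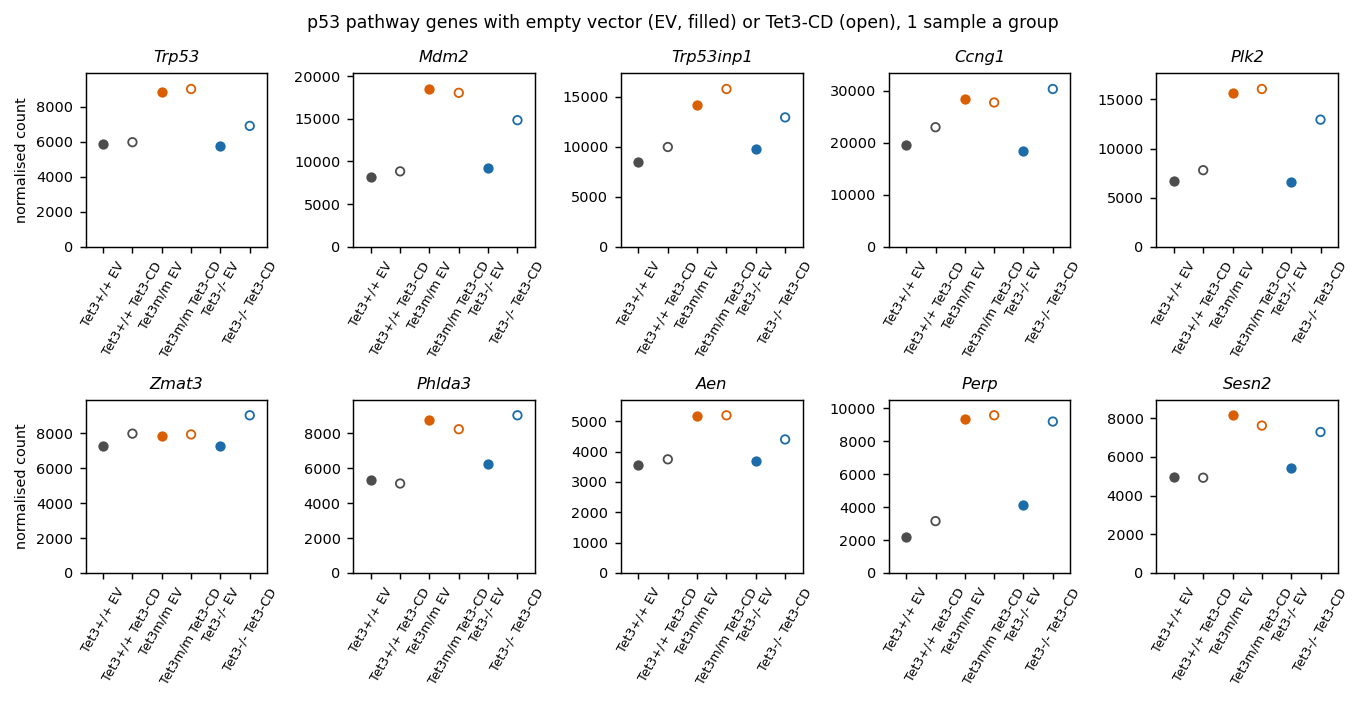
Normalised counts (axes from 0) of the 10 genes in the Tet3-CD experiment, 1 sample per group, filled for the empty vector and open for Tet3-CD; there is no error bar because there is no replicate. Perp is at 9354 and 9585 in Tet3m/m and goes from 4118 to 9205 in Tet3-/-.

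The feeder fibroblast markers did not have this order. They summed to 41428 in Tet3+/+, 28860 in Tet3m/m and 25246 in Tet3-/- with the empty vector and to 30115 in Tet3-/- with Tet3-CD. The pluripotency markers summed to 17382 in Tet3m/m and to 10608 and 10935 in Tet3+/+ and Tet3-/- with the empty vector. In Tet3-/- with Tet3-CD they summed to 8842, the lowest of the 6 libraries. The epithelial junction genes summed to 76933 in Tet3+/+, 190149 in Tet3m/m and 149235 in Tet3-/- with the empty vector and to 198993 in Tet3-/- with Tet3-CD. Cdkn2a was at 1637, 2342 and 1438 in the 3 empty-vector samples and at 2277 in Tet3-/- with Tet3-CD, the same order of levels as Mdm2 except between Tet3+/+ and Tet3-/-. The G2 and mitosis genes summed to 73993 and 73063 in Tet3m/m without and with Tet3-CD and to 71262 in Tet3-/- with Tet3-CD, the 3 libraries with high targets, and to 91380 to 93099 in the other 3. The endoderm markers summed to 30107 in Tet3+/+, 8389 in Tet3m/m and 8928 in Tet3-/- with the empty vector, to 25332 in Tet3+/+ with Tet3-CD and to 6481 in Tet3-/- with Tet3-CD. The neuroectoderm markers summed to 21858 in Tet3+/+, 30971 in Tet3m/m and 13555 in Tet3-/- with the empty vector. With Tet3-CD they summed to 21223, 29418 and 25056 in the same order. The part of these markers in the differences was not tested.

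The genes whose pattern was most like that of Trp53 and of Ccng1 were ranked among the 17244 genes tested in both tables, by the smaller of the Pearson correlations of log2 values over the 8 day 3 samples and over the 12 samples of the Dnmt1 experiment. The points share genotype groups and vectors, so these values are descriptions without a test. Those most like Trp53 were Noc3l, Ints9, Ubqln4, Dus3l and Mettl16, with smaller correlations of 0.74 to 0.77. Those most like Ccng1 were Strn3, Wdr35, Mlec, Tnfrsf10b and Pja2, all at 0.98 to 1.00 in both tables. Of the 5 genes most like Ccng1 only Tnfrsf10b, a p53 target, is on a list used here, and none of the 5 most like Trp53 is.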

How the data were processed

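RNA-seq values of 26 of the 35 samples were used, from 3 tables; the methylation, hydroxymethylation and CUT&Tag samples were not analysed here. The authors trimmed reads with Trim Galore 0.6.7, aligned them with STAR 2.7.9a to mm39 (the submitters' processing notes name mm10), counted them per gene using featureCounts and scaled them with DESeq2. What was deposited is a signal: counts that the authors divided by each sample's size factor, and 100.0% of them came out as whole reads within 0.01 once multiplied back. Strandedness of the counting is not given in the sources used here. No column was left unused.

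From these values, genes with a mean of at least 10 were fitted with limma 3.58.1 (R 4.3.3) on log2(value + 1), using the trended empirical Bayes option and a single fit per experiment, with Benjamini-Hochberg adjustment across all tested genes; fold changes are on that scale, and a gene passed at an adjusted p under 0.05. The Tet3-CD experiment gives log2 ratios without a test. The settings varied were the pseudocount (0.1 or 5), the filter (none, or a mean of 50 and more), edgeR 4.0.16 (quasi-likelihood) and DESeq2 1.42.0 on the recovered reads, TMM rescaling, only the compared groups in the fit, an added 1.5-fold threshold, a replicate block and each library left out. The fits were tested on simulated data with 200 changed genes.

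Groups follow the labels. Replicate numbers come from the column names, except that 1 name stands for both Tet3+/+ samples that received the empty vector beside Dnmt1. Replicates differed by more than sampling noise (chi-square per degree of freedom 13.84 to 87.18 on day 3 and 3.96 to 11.11 in the Dnmt1 experiment). The members and gene lists were chosen with earlier results of these data known. Named genes are the members, Tet3, Dnmt1 and Cdkn1a, up to 3 genes that passed in each direction with the largest fold change in each list and comparison, and the 5 most like Trp53 and Ccng1. Promoter sequences are from RefSeq (GRCm38.p6), and exon lengths from GENCODE on the same assembly. Figures were drawn with matplotlib 3.10.9.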

Additional observations from a re-analysis of the deposited data

Results flagged for a closer look

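The response of 7 members to Dnmt1 differed between genotypes by the interaction test in limma (adjusted p under 0.05), in 10 contrasts of 30 tested over the members; the calls for Perp (both contrasts) were lost with DESeq2, and that for Trp53inp1 against Tet3+/+ with only the compared groups in the fit. Of all 18055 genes, 236 passed for Tet3m/m against Tet3+/+, 1753 for Tet3-/- against Tet3+/+ and 2572 for Tet3-/- against Tet3m/m. The log2 change with Dnmt1 in Tet3-/- cells exceeded that in Tet3+/+ cells by 0.49 for Mdm2, 0.20 for Trp53inp1, 0.42 for Perp and 0.42 for Plk2. It exceeded that in Tet3m/m cells by 0.53 for Mdm2, 0.38 for Ccng1, 0.38 for Trp53inp1, 0.33 for Sesn2 and 0.44 for Perp. For Trp53 the difference between Tet3-/- and Tet3m/m cells was -0.25, that is, the factor's own RNA rose less in the cells in which its targets rose more. Each of these rests on 2 samples per group, and Dnmt1 replicate 2 of the Tet3-/- cells was the higher of its pair for all 7 genes.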

How the results depend on the processing

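No difference that passed reversed under an alternative. The sign changed in at least 1 alternative for 17 of 120 member values, 0 of which had passed: on day 3 Plk2 ranged from -0.31 to 0.30, Perp from -0.44 to 0.16 and Phlda3 from -0.16 to 0.04 in Tet3m/m, and Trp53 from -0.14 to 0.10 in Tet3-/- against Tet3+/+. The 3 genotype comparisons with the empty vector gave 8, 9 and 9 members under each alternative tried except the added 1.5-fold threshold, which left 3 for Tet3m/m against Tet3+/+, 8 for Tet3-/- against Tet3+/+ and 6 for Tet3-/- against Tet3m/m, and single left-out libraries. On day 3, Tet3m/m against Tet3+/+ went from 0 to 1 member (Zmat3) with a pseudocount of 5, a mean of at least 50, DESeq2 or only the compared groups. Tet3-/- against Tet3+/+ went from 0 to 4 with DESeq2 and to 6 with only the compared groups, and Tet3-/- against Tet3m/m from 3 to 0 with only the compared groups; the cause was not tested. DESeq2 called 1380 of all genes between Tet3-/- and Tet3+/+ on day 3, where limma called 122 and edgeR 90; limma called 69 after TMM rescaling, 65 and 240 with pseudocounts of 0.1 and 5, 60 with a mean of at least 50 and 956 with only the compared groups. For Dnmt1 against the empty vector, Tet3+/+ went from 1 to 2 and the interaction of Tet3m/m with Tet3+/+ from 0 to 1 with only the compared groups. The 1.5-fold threshold left 0 for Dnmt1 in each genotype and for both interactions with Tet3-/-. Leaving out 1 library gave 0 to 2, 0 to 6 and 0 to 8 members on day 3 (Tet3m/m and Tet3-/- against Tet3+/+, and Tet3-/- against Tet3m/m), 6 to 8, 9 to 9 and 9 to 9 with the empty vector in the same order, 0 to 1, 1 to 3 and 4 to 8 for Dnmt1 in Tet3+/+, Tet3m/m and Tet3-/-, and 0 to 1, 1 to 6 and 5 to 7 for the interactions of Tet3m/m with Tet3+/+, Tet3-/- with Tet3+/+ and Tet3-/- with Tet3m/m. Where a group was left with 1 sample, it was assumed to vary like the others.

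Same-numbered samples did not deviate together (correlations of -0.10 to 0.08 on day 3 and -0.05 to 0.03 in the Dnmt1 experiment), so the samples share only a number. With the number as a replicate block, Dnmt1 in Tet3m/m kept 1 of 3 members, Dnmt1 in Tet3-/- 5 of 7 and the interaction of Tet3-/- with Tet3m/m 4 of 6, and the day 3 counts were 0, 0 and 3 as without it; over all genes Dnmt1 in Tet3m/m went from 1842 to 810 calls and in Tet3-/- from 2423 to 1279. No block could be fitted for comparisons with empty-vector Tet3+/+ cells, whose samples carry no number of their own.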
